A study of Oryctolagus cuniculus with 8 samples.

Results

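The miR-29 family was described in extracellular vesicles, the membrane particles that cells shed into body fluids, from the uterus and the oviduct of the rabbit. Its members were chosen by name alone, as every mature miRNA called miR-29a, miR-29b or miR-29c from either arm of its hairpin precursor. They were 7 of the 579 mature names in the table of small RNA reads, on 8 of its 615 rows. The table writes them with the species prefix, as in ocu-miR-29a-3p and ocu-miR-29b-3p, and the prefix is left out below. The ending 5p or 3p names the arm of the hairpin that a mature miRNA comes from.

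The uterine group had 3 libraries, titled 12, 3 and 4, each from a pool of 5 animals. The library titled 12 has library number 1 in its description, and whether its title means more than a number is unknown. The oviductal group had 5 libraries, numbered 1 to 5, each from a pool of 3 animals. All animals were WT California x New Zealand white does that had borne 4 to 6 litters. Both groups were given eCG (25 IU), a gonadotropin, followed after 48 h by a GnRH analogue (20 µg), which triggers ovulation. The hormone treatment is thus shared by all libraries. Tracts were flushed at least 14 to 15 h after the analogue, with 2.2 mL per uterus or 1 mL per oviduct, and vesicles were separated on a size exclusion column. The pools have 30 places for 21 does, so some does gave to more than 1 pool, and p-values measure the spread between pools that may share animals. In vesicles of pooled animals, fewer vesicles of one kind and fewer copies of a miRNA in each vesicle cannot be told apart.

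MiRNAs of the miR-29 family share the seed, the stretch near the 5′ end that pairs with target mRNAs, and so bind overlapping sets of targets. In human and mouse the family is known for repressing mRNAs of the extracellular matrix, collagens, elastin and fibrillin among them, and of the DNA methyltransferases DNMT3A and DNMT3B. TGF-β signalling lowers it in fibroblasts, and for these targets it is known as a brake on fibrosis. In both species the 3p arm is the one known as the active strand. The mature 3p forms of miR-29a and miR-29c are near-identical in sequence in human and mouse, so that reads of one may be counted for the other. How the counting split such reads is unknown. In the RefSeq gene table of the rabbit assembly mOryCun1.1, which differs from the build of the reads, MIR29A lies next to MIR29B-1 and MIR29C next to MIR29B-2.

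Uterine libraries had 232546 to 479865 miRNA reads and oviductal libraries 42684 to 569087, counted over 1 row per name. In CPM, reads per 1000000 miRNA reads of the library, 3 reads stood for 63.0 and 70.3 CPM in oviductal replicates 2 and 3, and for 5.27 to 12.9 CPM in the other libraries. A count of 0 is taken below to allow up to those levels. Binomial intervals below (95%, exact Clopper-Pearson) and these limits cover counting error only. For a count of 0 the interval reaches further than the limit, to 86.4 CPM in oviductal replicate 3.

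The family took 5927 reads over the 8 libraries, and 92.7% of them were miR-29a-3p. Next came miR-29c-5p with 196 reads, 3.31% of the family, and miR-29b-3p with 195 reads, 3.29%. The remaining names had 24 reads (miR-29c-3p), 14 (miR-29b-2-5p), 2 (miR-29a-5p) and 0 (miR-29b-5p). In a single library, miR-29a-3p held 81.6% to 98.6% of the family's reads in the uterine group and 89.3% to 94.9% in the oviductal group. Most of the family's reads were thus of the 3p arm under the name miR-29a-3p, which may include reads of miR-29c-3p. No member had the same profile over the libraries as another name in the table.

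The summed family made up 0.213%, 0.146% and 0.289% of miRNA reads in uterine replicates 12, 3 and 4. It made up 0.400%, 0.185%, 0.155%, 0.176% and 0.267% in oviductal replicates 1 to 5. Uterine libraries averaged 0.216% ± 0.0712 (SD, n = 3) and oviductal libraries 0.237% ± 0.101 (SD, n = 5). Uterine minus oviductal, this is -0.0207 percentage points, smaller than the SD of either group, and the ranges overlapped. Its sign turned, to 0.0297, when the dominant miR-148a-3p was left out of the totals, to 0.0142 without uterine replicate 3 and to 0.0202 without oviductal replicate 1.

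**Figure D1:**
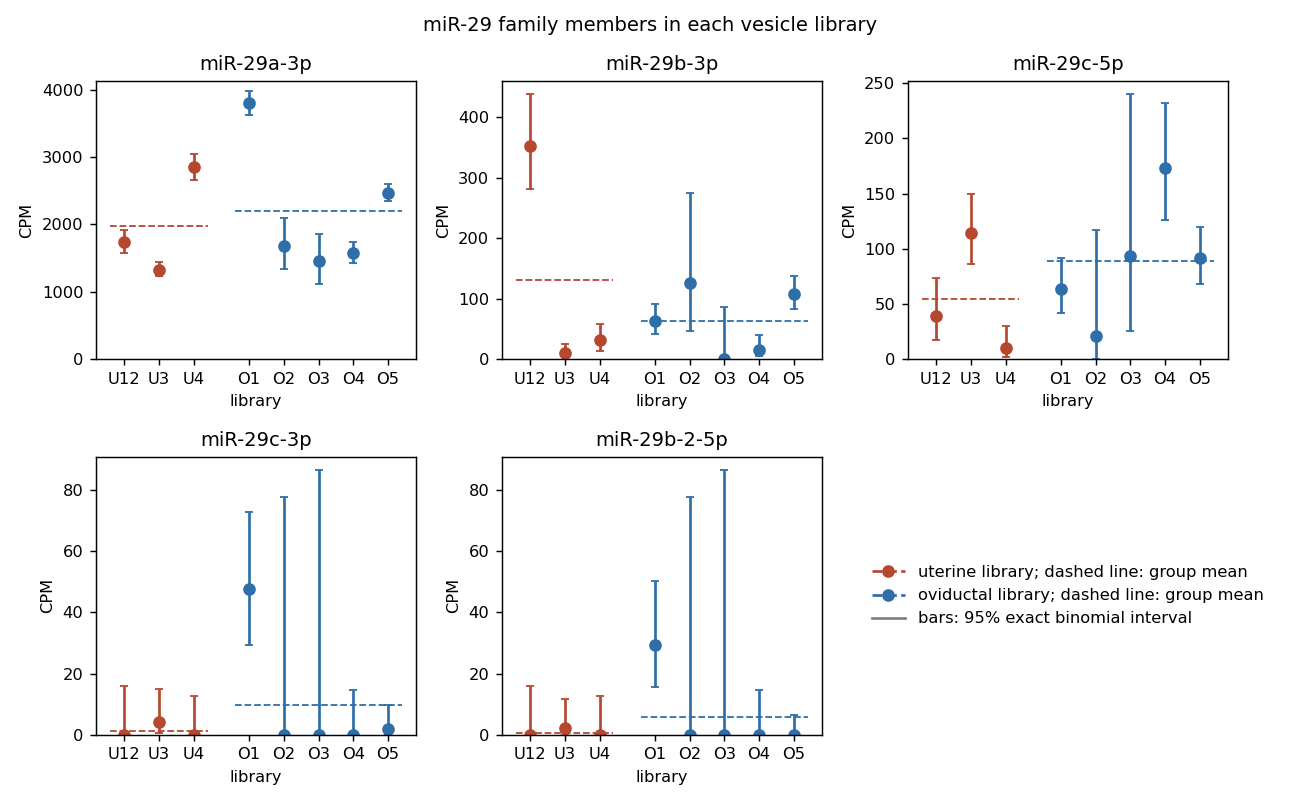
CPM of 5 miR-29 names in each library (U uterine, O oviductal, with the number in the title), with 95% exact binomial intervals as bars and group means as dashed lines. The uterine values of miR-29a-3p, 1330 to 2846 CPM, overlap the oviductal ones, 1453 to 3798 CPM, miR-29b-3p is highest in uterine replicate 12 at 353 CPM, and miR-29c-3p and miR-29b-2-5p are highest in oviductal replicate 1.

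The most abundant member, miR-29a-3p, was found in all 8 libraries. It stood at 1737, 1330 and 2846 CPM in uterine replicates 12, 3 and 4. In oviductal replicates 1 to 5 it stood at 3798, 1681, 1453, 1575 and 2469 CPM. Oviductal replicate 1 was the highest library and uterine replicate 3 the lowest, and the groups overlapped over most of their range. The counts behind these values were 404 to 829 reads in the uterine and 62 to 1677 in the oviductal libraries. Among all names of a library it ranked 34th to 41st in the uterine group and 30th to 51st in the oviductal group. Over the 8 libraries the SD of log2(CPM + 1) was 0.53 for miR-29a-3p, against a median SD of 0.85 over the 77 miRNAs with at least 10 reads in every library, and 13 of those 77 varied less. The 77 were not matched for level, and counting error adds to the SD of names with few reads.

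Group means of miR-29a-3p were 1971 ± 785 CPM for uterine libraries (SD, n = 3), against 2195 ± 980 CPM for oviductal libraries (SD, n = 5). The fitted log2 fold change, uterine over oviductal, was 0.09 ± 0.51 (SE), with a 95% interval of -0.98 to 1.16 and an edgeR adjusted p of 0.978. The sign of the fitted value is opposite to that of the difference of mean CPM. The fit scales libraries by TMM factors, which were 0.751, 0.666 and 1.21 in uterine replicates 12, 3 and 4 and 0.918 to 1.29 in the oviductal libraries. Scaled by library totals alone, the log2 fold change was -0.16, and with upper-quartile factors 0.28. The interval leaves room for a change of either sign.

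Far fewer reads fell on miR-29b-3p, whose human form carries a motif at its 3′ end known for nuclear import. Its level was 353, 10.4 and 30.9 CPM in uterine replicates 12, 3 and 4, from 82, 5 and 9 reads. In oviductal replicates 1 to 5 it was 63.4, 126, 0, 15.7 and 107 CPM, from 28, 6, 0, 4 and 61 reads. Uterine replicate 12 was the highest library of all, with an interval of 280 to 438 CPM, while the other uterine libraries lay inside the oviductal range. That library held 42.1% of all miR-29b-3p reads and 9.86% of all miRNA reads. The 0 of oviductal replicate 3 allows up to 70.3 CPM, and the interval of oviductal replicate 2 ran from 46.3 to 274 CPM. Both precursors, mir-29b-1 and mir-29b-2, carry the same counts for this arm in the table, so its reads cannot be given to one copy.

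The log2 fold change of miR-29b-3p was 1.56 ± 1.30 (SE), with a 95% interval of -1.19 to 4.30 and an edgeR adjusted p of 0.660. Mean levels were 131 ± 192 CPM for uterine libraries (SD, n = 3), against 62.5 ± 55.1 CPM for oviductal libraries (SD, n = 5). Without uterine replicate 12 the log2 fold change turned to -1.59 (edgeR adjusted p 0.887), and by limma-voom it was -0.14 (limma adjusted p 0.976). The positive value therefore rests on 1 library of 3. In that library the markers of epithelium made up 0.722% of reads and those of multiciliated cells 0.495%, the lowest of all 8 libraries. Markers of muscle and stroma made up 2.57% there, and 4.89% in uterine replicate 4, where miR-29b-3p stood at only 30.9 CPM. Whether these have a part in the level of miR-29b-3p was not tested.

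**Figure D2:**
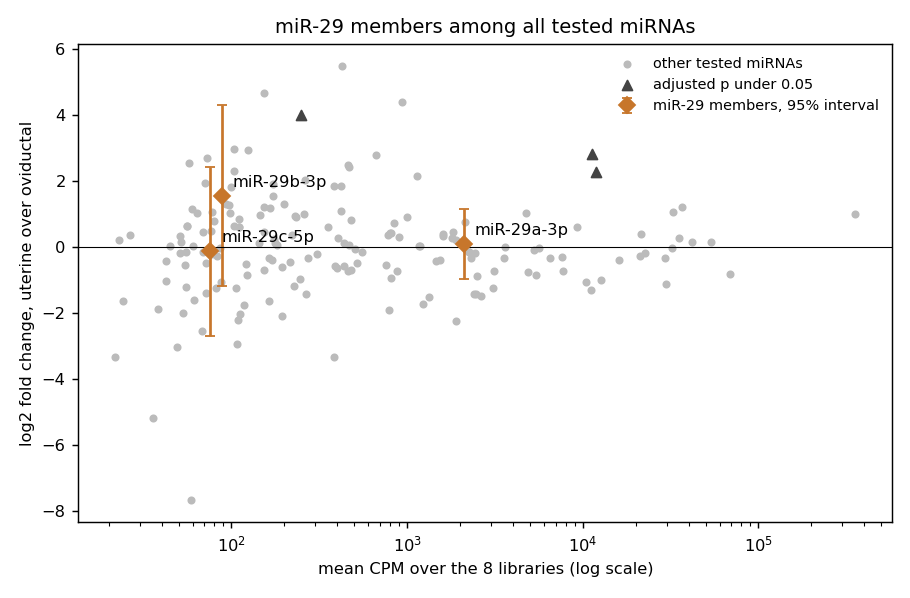
Log2 fold change, uterine over oviductal, against mean CPM over the 8 libraries (log scale) for the 178 tested miRNAs, with the 3 miR-29 members that were tested as diamonds and their 95% intervals as bars. All 3 intervals cross 0, and the 3 triangles are the miRNAs past the adjusted p threshold.

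As counted, miR-29c had more reads of the 5p arm than of the 3p arm. The level of miR-29c-5p was 38.7, 115 and 10.3 CPM in uterine replicates 12, 3 and 4, from 9, 55 and 3 reads. In oviductal replicates 1 to 5 it was 63.4, 21.0, 93.7, 173 and 91.4 CPM, from 28, 1, 4, 44 and 52 reads. The highest library was oviductal replicate 4 and the lowest uterine replicate 4, and the groups overlapped. Means were 54.5 ± 53.9 CPM for uterine libraries (SD, n = 3), against 88.5 ± 55.5 CPM for oviductal libraries (SD, n = 5). The log2 fold change was -0.13 ± 1.22 (SE), with a 95% interval of -2.71 to 2.44 and an edgeR adjusted p of 0.978. It turned to 0.055 with upper-quartile factors, 0.48 without uterine replicate 4, 0.39 without oviductal replicate 4 and 0.061 without uterine replicate 12, and was -1.79 without uterine replicate 3 (adjusted p 0.538 to 0.999 over all alternatives in edgeR, DESeq2 and limma-voom).

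Reads of miR-29c-3p were concentrated in a single library. Oviductal replicate 1 had 21 of the 24 reads, at 47.6 CPM with an interval of 29.4 to 72.7 CPM, and held 18.7% of all miRNA reads. The other reads were 2 in uterine replicate 3, at 4.17 CPM, and 1 in oviductal replicate 5, at 1.76 CPM. Uterine replicates 12 and 4 and oviductal replicates 2, 3 and 4 had 0. At the depth of oviductal replicate 5, the deepest library, the interval reached only 9.79 CPM, below that of oviductal replicate 1. The zeros of oviductal replicates 2 and 3 allow 63.0 and 70.3 CPM, so a difference from them was not detectable at their depth.

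The same library held nearly all reads of miR-29b-2-5p, the 5p arm of the neighbouring precursor mir-29b-2. There were 13 of 14 reads in oviductal replicate 1, at 29.4 CPM with an interval of 15.7 to 50.3 CPM, and 1 in uterine replicate 3, at 2.08 CPM. Both miR-29c-3p and miR-29b-2-5p were thus found in oviductal replicate 1 and uterine replicate 3, and of all other libraries only oviductal replicate 5 had a read of either. From the other pair of neighbours, miR-29a-5p had 1 read in uterine replicate 3 and 1 in oviductal replicate 2. The 5p arm of mir-29b-1, named miR-29b-5p, had 0 reads in every library, which allows up to 5.27 CPM in the deepest one.

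Both arms of miR-29c were read in 3 libraries, in unequal shares. The 5p arm made up 100% of 9 reads (interval 66.4% to 100%), 96.5% of 57 (87.9% to 99.6%) and 100% of 3 (29.2% to 100%) in uterine replicates 12, 3 and 4. In oviductal replicate 1 it was 57.1% of 49 reads (42.2% to 71.2%), below the lower ends of the intervals of oviductal replicates 4 and 5, at 92.0% and 89.9%. Those replicates had 100% of 44 reads and 98.1% of 53 reads on the 5p arm. The 1 read of oviductal replicate 2 and the 4 reads of replicate 3 were all 5p, too few to place them.

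Over all libraries, 5p reads were 89.1% of both arms for mir-29c, 0.0364% for mir-29a and 0% for mir-29b-1. They were 6.70% for mir-29b-2, where the 3p reads may belong to either copy of miR-29b. The share for mir-29c rests on 24 reads of miR-29c-3p beside 5496 of miR-29a-3p, whose split is unknown, so a small part of the miR-29a-3p reads moved to miR-29c-3p would turn the order of its arms. The same holds for the shares by library. Of 206 precursors with both arms named and at least 10 reads, 117 had more 5p and 89 more 3p reads, with a median 5p share of 75.6%. From the lowest 5p share, mir-29c stood 111th and mir-29a 40th, near the floor of the scale with 38 precursors at 0% below it, mir-29b-1 among them.

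**Figure D3:**
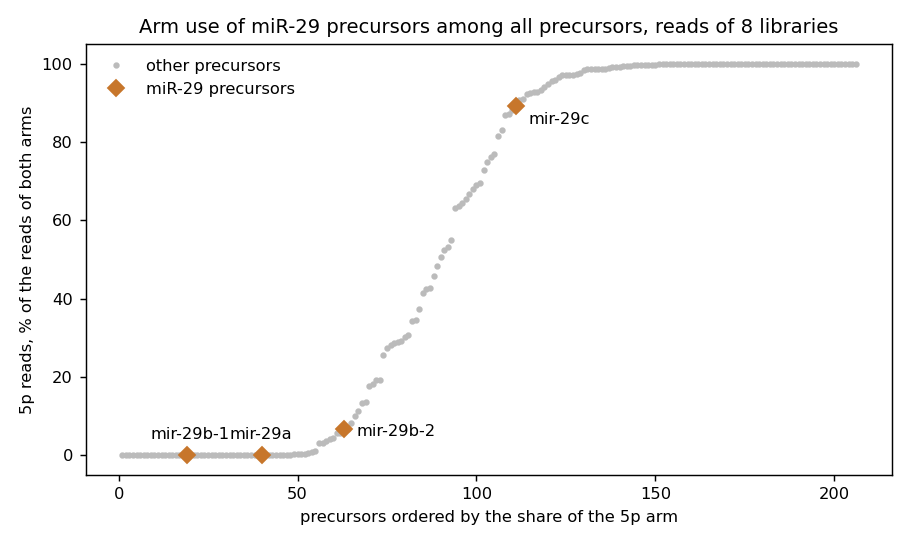
Share of the 5p arm in the reads of both arms, in percent, for 206 precursors ordered from the lowest share, with reads summed over the 8 libraries and the 4 miR-29 precursors as diamonds. The precursors mir-29a and mir-29b-1 lie at 0.0364% and 0%, mir-29b-2 at 6.70% and mir-29c at 89.1%.

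In order of mean level over the libraries the members were miR-29a-3p, miR-29b-3p, miR-29c-5p, miR-29c-3p, miR-29b-2-5p, miR-29a-5p and miR-29b-5p. The first stood above the second in 8 of 8 libraries. The neighbours miR-29b-3p and miR-29c-5p could not be ordered, with more reads of miR-29b-3p in 4 libraries, more of miR-29c-5p in 3 and equal reads in 1. More reads of miR-29c-5p than of miR-29c-3p were found in 8 of 8 libraries. The last 4 names differed in at most 3 libraries and were not ordered beyond their counting error in most.

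Ratios within a library do not depend on scaling, but at few reads their log2 values depend on the pseudocount added. Reads of miR-29b-3p came to 20.3%, 0.784% and 1.09% of those of miR-29a-3p in uterine replicates 12, 3 and 4. In oviductal replicates 1 to 5 they came to 1.67%, 7.50%, 0%, 0.998% and 4.34%. With a pseudocount of 0.5 the mean log2 ratio was -5.20 ± 2.53 in uterine vesicles (SD, n = 3) and -5.49 ± 1.39 in oviductal vesicles (SD, n = 5). That difference, 0.29, was 0.11 with a pseudocount of 1 read. It became -1.16 when uterine replicate 12 was left out, 1.12 when uterine replicate 3 was, and -0.074 when oviductal replicate 3 was. Reads of miR-29c-5p came to 2.23%, 8.62% and 0.362% of those of miR-29a-3p in uterine replicates 12, 3 and 4, and to 1.67%, 1.25%, 6.45%, 11.0% and 3.70% in oviductal replicates 1 to 5. For that pair the mean log2 ratio was -5.61 ± 2.19 in uterine vesicles (SD, n = 3) and -4.67 ± 1.19 in oviductal vesicles (SD, n = 5). The difference of -0.94, uterine minus oviductal, became 0.20 without uterine replicate 4 and -1.98 without uterine replicate 3. With a pseudocount of 1 read it was -0.97. Uterine replicate 12 was high in miR-29b-3p and uterine replicate 3 in miR-29c-5p, so that the uterine pools differed from each other in both ratios by more than the group means did.

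Of the 7 members, 3 had enough reads to be tested between the groups and 0 of them passed an edgeR adjusted p of 0.05. Across the table, 3 of 178 miRNAs passed, 1.69%, all higher in uterine vesicles. None of the 3 members had an unadjusted p under 0.05 in edgeR, DESeq2 or limma-voom, and none passed in any alternative. The CPM of the groups overlapped for all 3, while 14.6% of the tested miRNAs had groups that did not overlap. With 3 members, such shares cannot set the family apart from the table. The 4 members not tested were miR-29c-3p, miR-29b-2-5p, miR-29a-5p and miR-29b-5p, and their values per library, given above, are the only description of them.

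**Figure D4:**
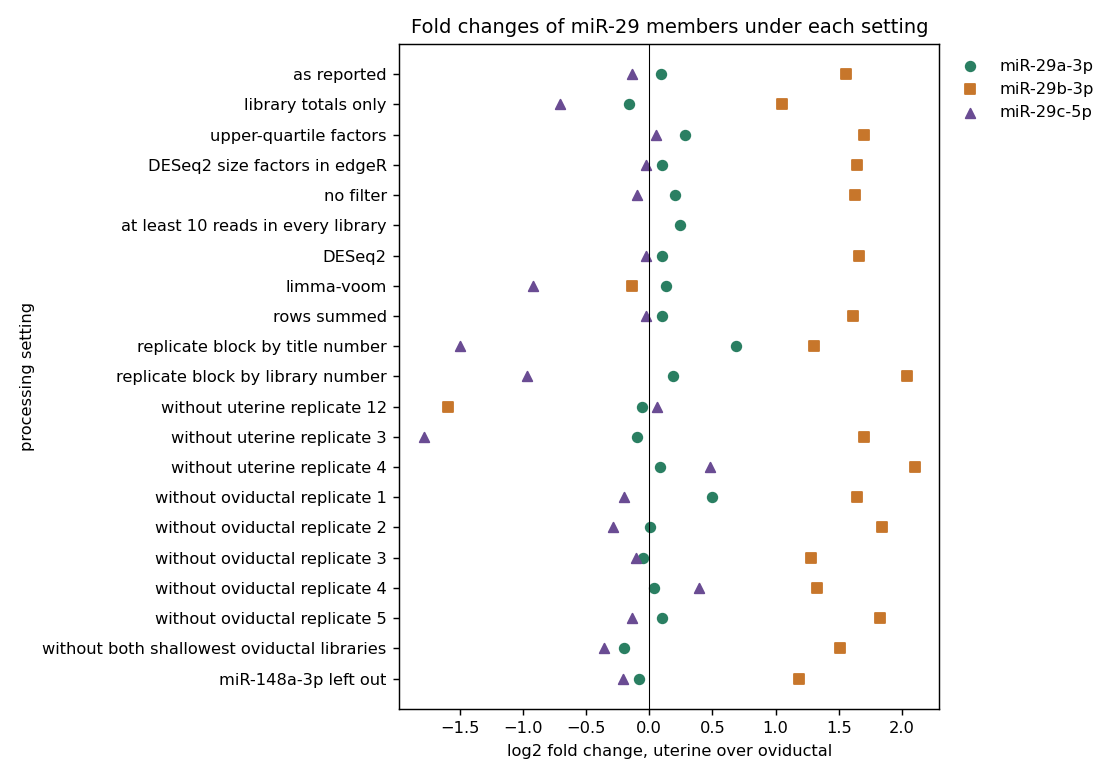
Log2 fold change, uterine over oviductal, of the 3 tested miR-29 members as reported and under 20 alternative settings, named on the vertical axis. For miR-29a-3p the values run from -0.20 to 0.69, and miR-29b-3p is at -1.59 without uterine replicate 12.

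The miRNAs whose levels moved most like miR-29a-3p were looked for among the 76 others with at least 10 reads in every library. Pearson's r of log2(CPM + 1) over the 8 libraries is given as a description, since the values of a library share its total, of which miR-148a-3p takes a large part. It was highest for miR-26a-5p, at 0.818, followed by miR-363-3p at 0.752, miR-218-5p at 0.650, miR-23b-3p at 0.615 and miR-181b-5p at 0.614. The median r over the 76 was 0.0640. Levels of miR-26a-5p were 27010 ± 5301 CPM for uterine libraries (SD, n = 3), against 35196 ± 9751 CPM for oviductal libraries (SD, n = 5). Its r lay between 0.741 and 0.873 when each library was left out in turn, whereas that of miR-23b-3p was 0.292 without oviductal replicate 1. The lowest r were those of miR-148b-3p at -0.655, miR-672-5p at -0.415 and let-7f-5p at -0.387.

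**Figure D5:**
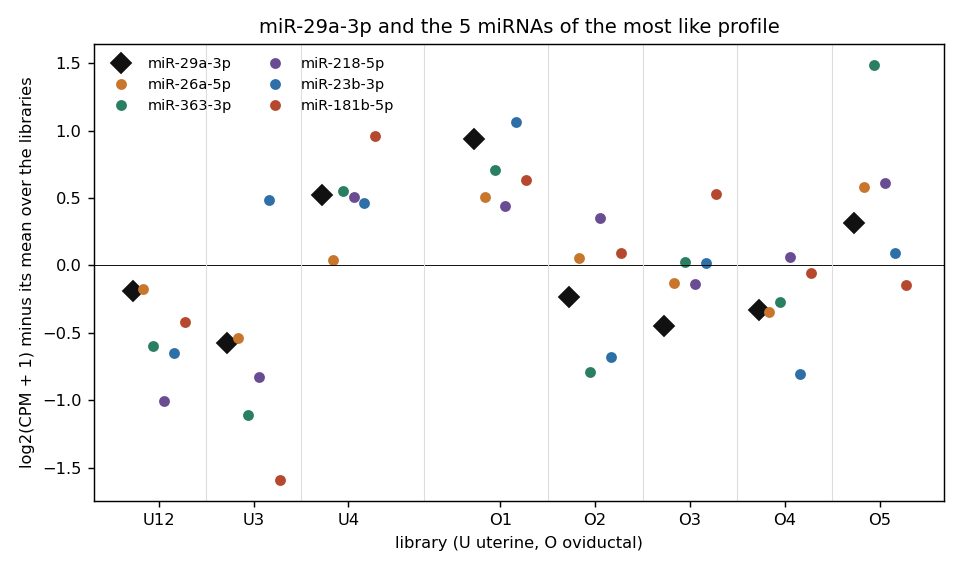
Values of log2(CPM + 1) less their mean over the 8 libraries, for miR-29a-3p (diamonds) and the 5 miRNAs with the highest Pearson's r to it. All 6 lie above their own mean in oviductal replicate 1 and in uterine replicate 4, and below it in uterine replicate 12.

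Other miRNAs known for the targets and processes of the miR-29 family were described by their counts. Of 10 listed regulators of matrix or fibrosis, 9 were in the table and 7 were tested. By edgeR 0 of the 7 passed, with 1 at an unadjusted p under 0.05 and 0 called by DESeq2 or limma-voom. Over all tested miRNAs 1.69% passed by edgeR and 15.7% had an unadjusted p under 0.05, while 6.29% passed by DESeq2 and 0.562% by limma-voom, so these counts are near the background. Their log2 fold changes had a median of 0.60, with 5 positive and 2 negative, beside a median of -0.02 over all 178 tested miRNAs. Scaled by library totals alone 4 were positive, with a median of 0.23, and with upper-quartile factors 6 were, with a median of 0.80. The most abundant were miR-26a-5p at -0.03 ± 0.39, miR-21-5p, known to promote fibrosis, at 0.60 ± 0.39, and miR-30c-5p, a repressor of connective tissue growth factor, at -0.32 ± 0.56 (SE). The mean of miR-21-5p was 10274 ± 3843 CPM for uterine libraries (SD, n = 3), against 8751 ± 1423 CPM for oviductal libraries (SD, n = 5). Listed miRNAs of the muscle and stroma markers, miR-199a-3p and miR-199a-5p, were in this list too, at 1.84 and 1.81, neither past the threshold.

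Among 8 listed regulators of DNA methyltransferases, 7 were in the table and were tested. The median log2 fold change was 0.80 and all 7 were positive, beside a median of -0.02 over all 178 tested miRNAs. By edgeR 1 passed, where 3 of the 178 tested miRNAs did, 1.69%. An edgeR unadjusted p under 0.05 was reached by 2, and by 15.7% of all tested miRNAs. DESeq2 and limma-voom called 1 each, where they called 6.29% and 0.562% of all tested miRNAs. Scaled by library totals alone 6 were positive and the median was 0.51, where that of all tested miRNAs was -0.31. The one past the threshold was miR-143-3p, reported as a repressor of DNMT3A in human and also among the muscle and stroma markers, at 2.81 ± 0.48 (SE, edgeR adjusted p 0.00261). It did not pass without both of the shallowest libraries (edgeR adjusted p 0.171). Nor did it with a replicate block by title number (log2 fold change 2.41, edgeR adjusted p 0.791) or by library number (2.49, edgeR adjusted p 0.327). Libraries whose number the other group lacks add nothing to a blocked contrast. So few matched libraries remain that a blocked fit could hardly pass. Means of miR-143-3p were 23785 ± 19837 CPM for uterine libraries (SD, n = 3), against 3807 ± 430 CPM for oviductal libraries (SD, n = 5). The most abundant was miR-148a-3p, known as a repressor of DNMT1, at 0.99 ± 0.39 (SE, edgeR adjusted p 0.182), followed by miR-143-3p and then miR-148b-3p at 0.29 ± 0.49 (SE). The tested members of the miR-29 family, at 0.09, 1.56 and -0.13, had a median of 0.09 in the same fit. The last of these values is that of miR-29c-5p, a 5p form without the shared seed.

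Markers of the cells that could supply vesicles were measured in the same libraries as shares of reads. The 4 epithelial markers in the table took 0.722% to 3.01% in the uterine and 5.41% to 6.18% in the oviductal libraries, and the multiciliated ones 0.495% to 3.38% in the uterine and 2.77% to 6.12% in the oviductal libraries. Muscle and stroma markers took 0.588% to 4.89% of uterine and 0.399% to 0.501% of oviductal reads. Of the tested ones, miR-143-3p averaged 23785 CPM in uterine and 3807 CPM in oviductal libraries, the others at most 1066 CPM each. The epithelial share was largely miR-200c-3p, at 13262 uterine and 39515 oviductal CPM, and miR-375-3p, at 4421 and 15268 CPM. For miR-205-5p the means were 401 and 2814 CPM, and for miR-141-3p 906 and 891 CPM. Erythrocyte markers took 0.123% to 0.768% and leukocyte markers 0.0786% to 0.349% of uterine reads, against 0.0922% to 0.288% and 0.100% to 0.235% of oviductal reads. By edgeR, 0 of 4 tested epithelial, 0 of 5 multiciliated, 1 of 6 muscle and stroma (miR-143-3p), 0 of 2 erythrocyte and 0 of 3 leukocyte markers passed, with 2, 0, 3, 1 and 1 at an unadjusted p under 0.05. By DESeq2 0, 0, 2, 1 and 1 passed, and by limma-voom 0, 0, 1, 0 and 0. Over the table, 3 of 178 passed by edgeR with 28 at an unadjusted p under 0.05, 11 of 175 passed by DESeq2 and 1 of 178 by limma-voom. Of the markers, miR-133b-3p, miR-486-3p and miR-142-5p had no read. Oviductal replicate 1, the library highest in miR-29a-3p, miR-29c-3p and miR-29b-2-5p, lay inside the oviductal range for the first 3 lists and was lowest for erythrocyte markers. What part these lists have in the levels of the miR-29 family was not tested.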

How the data were processed

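Small RNA libraries of vesicles were analysed from the deposited table of whole-number read counts, 1 row for each pair of mature miRNA and precursor, with RPM by the authors beside them. The deposited RPM equalled the count over the column sum, with a largest difference of 0.005. The build was OryCun2.0, per the submitters' processing notes, and no source used here names the aligner or counter. Where a name had several rows, the one with most reads stood for it. CPM were computed from these counts. Groups were tested by edgeR 4.0.16 (quasi-likelihood, robust, TMM, filterByExpr, Benjamini-Hochberg over all 178 tested miRNAs, threshold 0.05) under R 4.3.3, with DESeq2 1.42.0 and limma-voom (limma 3.58.1) as alternatives. An SE is the fold change (log2) over the root of F. Other alternatives were the scaling, the filter on low counts, summed rows, a replicate block, each library left out in turn, both shallowest libraries left out and miR-148a-3p left out. The edgeR step was also run on simulated data of independent libraries, unlike pools that may share does, and no result here rests on that run.

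The members and lists were chosen with earlier results of these data known. Named were all members, the 5 miRNAs of highest and 3 of lowest r to miR-29a-3p, and of the 2 target lists those called and the 3 most abundant. The rule also covers the marker lists, which are given mainly as sums and counts. MiRNAs miR-199a-3p and miR-199a-5p, the epithelial markers and the markers at 0 reads were named after their values were seen. Figures were drawn with matplotlib 3.10.9.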

Additional observations from a re-analysis of the deposited data

Results flagged for a closer look

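Of 11 values checked in the 5 oviductal libraries, 3 had a sample far from the others. Each of the 3 is a count at 0 in most libraries, where even a single read can set a library apart. The rate of about 1 in 20 groups that chance gives therefore does not apply. In oviductal replicate 1, miR-29c-3p stood at 47.6 CPM and miR-29b-2-5p at 29.4 CPM, from 21 and 13 reads, with 0 to 1 read in the other oviductal libraries. Their intervals there began at 29.4 and 15.7 CPM, above the upper ends of 9.79 and 6.48 CPM in oviductal replicate 5. In oviductal replicate 2, miR-29a-5p stood at 21.0 CPM, which is 1 read in a shallow library and below its limit of 3 reads.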

How the results depend on the processing

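None of the tested miR-29 members passed the threshold under any alternative, but their signs were not stable. For miR-29a-3p 14 of 20 alternatives were positive. It was -0.16 with library totals only, -0.20 without both shallow libraries and -0.079 with miR-148a-3p left out, and -0.10 to 0.50 when each library was left out in turn. For miR-29b-3p 17 of 19 were positive, with -0.14 by limma-voom and -1.59 to 2.10 over single libraries left out. For miR-29c-5p 15 of 19 were negative, with 0.055 by upper-quartile factors and -1.79 to 0.48 over single libraries left out. The last 2 could not be fitted when 10 reads were asked of every library, since they then drop from the table. The cause of the other turns was not tested.

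The count of 3 miRNAs past the threshold was 1 with library totals only, 6 with upper-quartile factors, 13 with no filter, 8 with 10 reads in every library, 11 by DESeq2, 1 by limma-voom, 7 with rows summed and 0 without both shallow libraries, where 20 had an unadjusted p under 0.05. Over single libraries left out it ran from 1 (uterine replicate 12, oviductal replicate 2) to 27 (uterine replicate 3), and it was 9 without uterine replicate 4. With a replicate block by title number or by library number it was 0 in edgeR, with 8 and 11 at an unadjusted p under 0.05. Only title numbers 3 and 4, or library numbers 1, 3 and 4, occur in both groups. The other libraries add nothing to a blocked contrast, and few degrees of freedom remain. A count of 0 there cannot tell whether pairing removes the differences. Same-numbered libraries did not deviate together, with correlations of deviations from the group means of -0.15, -0.17 and -0.08 for library numbers 1, 3 and 4, and 0 of 3 uterine libraries correlated best with its own number. Whether same-numbered pools hold the same does is unknown. Library totals shifted the median over the tested miRNAs to -0.31 and upper-quartile factors to 0.19.

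Of the 5 miRNAs most like miR-29a-3p, 3 stayed among the 5 highest by Spearman's rho and 3 with TMM-scaled CPM. Leaving out single libraries, an alternative chosen after seeing the data, left 2 (oviductal replicate 1) to 5. Depth limits the members other than miR-29a-3p, since 3 reads stand for 63.0 and 70.3 CPM in the 2 shallowest libraries.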
